A study of Mus musculus and Homo sapiens with 23 samples.

Results

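Zfp genes are the mouse genes named as zinc finger proteins. The set described here holds the Zfp genes that were expressed in BV2 cells, a line of immortalised mouse microglia. RNA of LPS-stimulated cells (1 library, 3 h of lipopolysaccharide, a cell wall component of Gram-negative bacteria) was set against RNA of unstimulated cells (1 library). Both libraries came from the same line, no genetic change is given for either, and the labels name no separate cultures. The other 21 of the 23 samples in the series profile chromatin and were not analysed here. A gene belonged to the set where its symbol began with Zfp and a number and its summed FPKM (fragments scaled to transcript length and library depth) was 1 or more in either library. The mRNA decay factors Zfp36, Zfp36l1 and Zfp36l2 were left out. This left 224 of 10040 genes that reached the same level in either library.

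Most Zfp proteins carry arrays of C2H2 fingers, short loops that each hold a zinc ion between paired cysteines and histidines and that read a few bases of DNA. A large part of the family also has a KRAB domain, which recruits the corepressor Trim28 and through it histone methylation and silencing, often at endogenous retroviruses. Many of these genes arose by tandem duplication and lie side by side in clusters, while others are single, conserved genes with roles in transcription, RNA handling or the ribosome. Which members carry a KRAB domain was not analysed here.

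Of 374 Zfp genes with a row in the tables, 373 were measured, 224 reached the threshold and 149 were below 1 FPKM in both libraries, among them 35 listed at 0 in both. The opposite-strand gene Zfp85os and the pseudogenes Zfp133-ps and Zfp862-ps are among the 149. The remaining gene, Zfp281, a factor that binds GC-rich promoters, had no row with a usable estimation status. Its main row read 1.92 FPKM in LPS-stimulated cells and 3.14 FPKM in unstimulated cells. The threshold had no natural gap. Just inside it lay Zfp933 (0.375 FPKM with LPS, 1.01 unstimulated), Zfp418 (0.504 and 1.02) and Zfp784 (0.759 and 1.03), and just outside it Zfp758 (0.610 and 0.970), Zfp189 (0.233 and 0.963) and Zfp952 (0.649 and 0.958). Because FPKM chose the genes, 81 entered through the unstimulated library alone and 7 through the LPS library alone. The first of these groups had to be lower with LPS and the second had to be higher, so counts over the set describe it and support nothing further.

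The deposited intervals imply about 16900000 fragments in the LPS library and 13800000 in the unstimulated library. Behind a single Zfp gene stood a median of 102 implied fragments in the LPS library and 168 in the unstimulated library. Of the 9 measured markers of microglia and macrophages, 9 were expressed, with summed levels of 8609 FPKM in LPS-stimulated and 10228 FPKM in unstimulated cells. None of the markers of neurons, astrocytes, oligodendrocytes, fibroblasts or lymphocytes reached 1 FPKM in either library. The highest single value among them was 0.394 FPKM in the LPS and 0.457 FPKM in the unstimulated library. The values come from bulk RNA, in which fewer expressing cells and less RNA per cell cannot be told apart. Since neither group has a replicate, nothing below is a test, and every difference is one between these 2 libraries.

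Zfp transcripts were scarce, and 188 of 224 genes had less FPKM in the LPS library than in the unstimulated library. The median Zfp gene had 1.40 FPKM in LPS-stimulated cells and 2.29 FPKM in unstimulated cells, against medians of 7.35 and 8.35 FPKM over all 10040 genes. Levels ran between 0.0611 and 226 FPKM with LPS and between 0.450 and 166 FPKM without. Only 13 Zfp genes in the LPS library and 19 in the unstimulated library reached 10 FPKM. Added up, the Zfp genes came to 861 FPKM with LPS and 1104 FPKM without, which was 0.129% and 0.197% of the FPKM of all genes kept. One gene, Zfp207, made up 26.2% of that sum in the LPS library and 15.0% in the unstimulated library. Without it the sums were 635 FPKM with LPS and 938 FPKM unstimulated.

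The change of a gene is given as log2(FPKM + 1) in the LPS library minus that in the unstimulated library, and a gene is called higher or lower where it changed by at least 1 on this scale. By this rule 6 of the 224 Zfp genes were higher, or 2.68%, where 8.55% of all counted genes were higher. Another 36 were lower, or 16.1%, where 12.5% of all counted genes were lower. The median change was -0.60 over the Zfp genes and -0.24 over all counted genes, and 83.9% of Zfp genes lay below 0, against 64.2% of all counted genes. The 95% intervals of the 2 libraries, deposited per transcript and combined where a gene had several, were apart for all 42 called genes. Counted without the size rule, the intervals were apart with the LPS value lower for 155 Zfp genes (69.2%, against 48.4% of all counted genes) and with the LPS value higher for 20 (8.93%, against 25.1%). For the other 49 they overlapped. The figures of the whole set include genes that had to be lower or higher because of how they entered. Over the 136 Zfp genes at 1 FPKM or more in both libraries the median change was -0.39, against -0.19 for other such genes. Of these 136 genes 78.7% lay below 0 (against 62.3%), 13.2% were lower (against 10.5%) and 2.94% higher (against 7.48%). The 2 sets differ in level, which this comparison does not match. Median levels were 2.59 FPKM with LPS and 4.03 FPKM unstimulated for these Zfp genes, against 9.73 and 11 FPKM for the other genes.

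**Figure D1:**
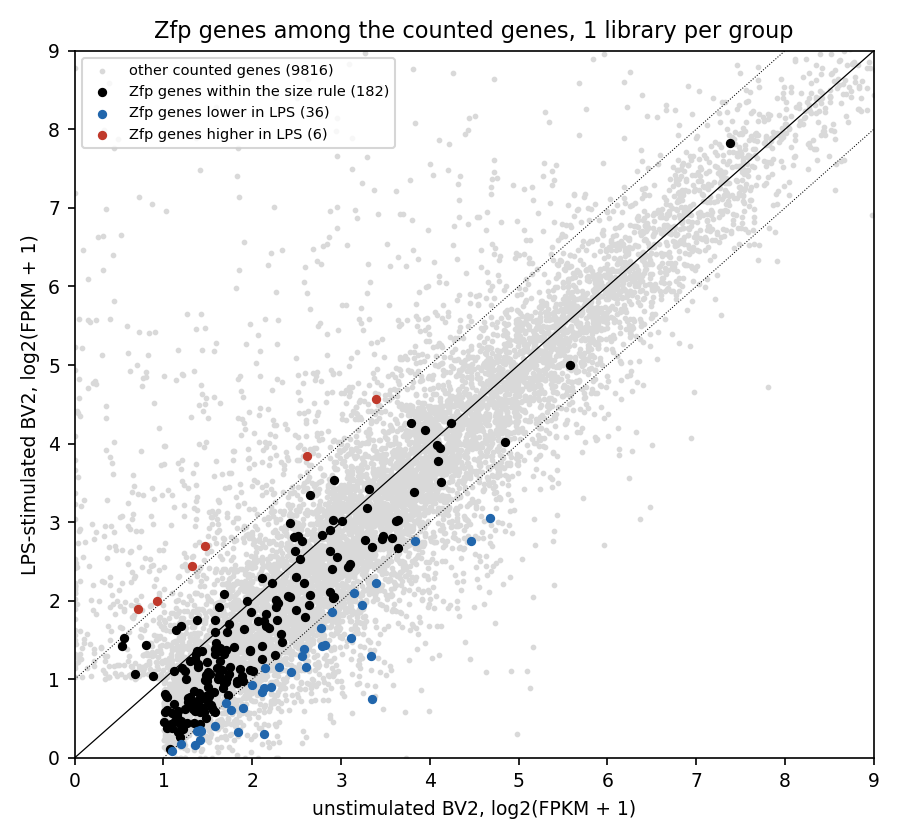
Each point is a gene, with log2(FPKM + 1) of unstimulated cells on the x axis and of LPS-stimulated cells on the y axis; the solid line marks equal levels, the dotted lines a change of 1, and 219 counted genes above 9 on either axis are not drawn. The 224 Zfp genes crowd the low corner below the solid line, with 36 lower (blue) and 6 higher (red), and Zfp207 stands alone near the top.

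How many Zfp genes counted as lower depended on how the libraries were scaled and how low levels were treated. After median scaling, which moved the median of all counted genes to -0.06, 25 Zfp genes were lower (11.2%, against 8.86% of all counted genes) and 8 higher (3.57%, against 10.5%). After quantile normalisation 12 were lower (5.36%, against 8.40% of all counted genes) and 8 higher (3.57%, against 9.46%). With a pseudocount of 5 in place of 1, 4 were lower (1.79%, against 3.54%) and 0 higher, where 5.75% of all counted genes were higher. Other settings went the other way. On the TPM scale, where all counted genes had a median change of -0.48, 86 Zfp genes were lower (38.4%, against 22.9% of all counted genes) and 6 higher (2.68%, against 7.42%). With a pseudocount of 0.1, 100 were lower (44.6%, against 20.6%) and 9 higher (4.02%, against 9.79%). Genes called higher made up 14.3% of the called Zfp genes on deposited FPKM, against 40.7% of all called genes. This share was 24.2% after median scaling (against 54.3%), 40% after quantile normalisation (against 53%), 6.52% on the TPM scale (against 24.5%), 8.26% with a pseudocount of 0.1 (against 32.3%) and 0% with a pseudocount of 5 (against 61.9%). After quantile normalisation the calls of lower Zfp genes numbered 12 in place of 36, and those of higher ones 8 in place of 6. The median change stayed below 0 in each of these settings.

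Since Zfp genes are scarce, their calls were also read against genes of a like level. Among genes with a mean under 2 FPKM, 14 of 119 Zfp genes were lower (11.8%), close to 13.0% of the other counted genes. Between 2 and 5 FPKM, 15 of 60 Zfp genes were lower (25%, against 18.5%), and between 5 and 10 FPKM, 5 of 31 (16.1%, against 16.2%). At 10 FPKM or more 2 of 14 were lower (14.3%, against 7.89%). The median change of Zfp genes was the more negative one in each of the 4 bins, at -0.65, -0.59, -0.50 and -0.24 from low to high level, against -0.45, -0.44, -0.32 and -0.04 for the other genes. From low to high level, 2 of 119 Zfp genes were higher (1.68%, against 5.03% of the other genes), 2 of 60 (3.33%, against 6.03%), 1 of 31 (3.23%, against 6.51%) and 1 of 14 (7.14%, against 11.9%). The upper bins rest on a single higher gene each. The bins also hold genes that entered through 1 library alone, whose direction was fixed. These were 81 Zfp genes through the unstimulated and 7 through the LPS library, against 900 and 316 of the other genes. The medians and shares by level are thus partly set by the entry rule and describe the set only.

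**Figure D2:**
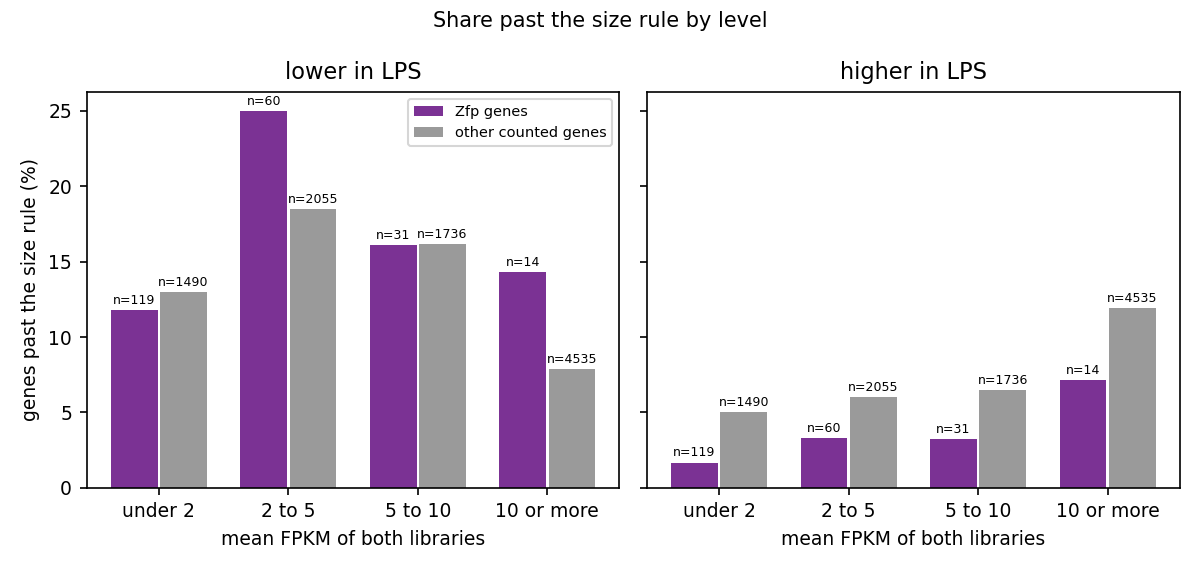
Bars give the percentage of genes past the size rule, lower in LPS on the left and higher in LPS on the right, for Zfp genes (purple) and the other counted genes (grey) in 4 bins of mean FPKM, with the number of genes over each bar. Zfp genes show smaller shares of higher genes in all 4 bins, while their share of lower genes is above the grey bar at 2 to 5 and at 10 or more.

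The genes that fell furthest were mostly of middling level in unstimulated cells. Zfp367 (mm9 chromosome 13, 64234365 to 64254507), also known as ZFF29 and described as an activator of globin genes in humans, had 0.686 FPKM (0.496 to 0.876) in the LPS library and 9.17 FPKM (8.46 to 9.88) in the unstimulated library. That is a change of -2.59 and a ratio of 0.0748 (0.0561 to 0.0998). The values do not overlap, and no other Zfp gene had a more negative change. Zfp948 (chromosome 17, 21704010 to 21725649) had 1.45 FPKM (1.12 to 1.77) with LPS and 9.09 FPKM (8.26 to 9.92) without, a change of -2.04. Zfp395, whose human counterpart binds the promoter of the huntingtin gene, had 0.237 FPKM (0.136 to 0.338) with LPS and 3.40 FPKM (3.01 to 3.8) unstimulated. Its ratio of 0.0696 (0.0447 to 0.108) was below that of Zfp367, and its change of -1.83 was smaller because the pseudocount weighs on low values.

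A pair of well expressed genes followed. Zfp692, known in humans as a factor that binds the AICAR response element, had 5.79 FPKM (4.92 to 6.66) in LPS-stimulated cells and 21.1 FPKM (19.5 to 22.7) in unstimulated cells, a ratio of 0.275. Zfp146, which consists of little more than its zinc fingers, had 7.33 FPKM (6.50 to 8.17) with LPS and 24.6 FPKM (23.0 to 26.2) without, a ratio of 0.298. Zfp367, Zfp948, Zfp692 and Zfp146 were the 4 genes still called lower with a pseudocount of 5. The next were Zfp346, which binds double-stranded RNA (1.88 FPKM with LPS and 7.63 unstimulated), Zfp101 (0.257 and 2.58), Zfp715 (1.23 and 5.09), Zfp62 (1.70 and 6.06) and Zfp930 (1.69 and 5.90). Zfp825 (1.14 and 4.4), Zfp944 (0.874 and 3.63), Zfp326 (2.85 and 8.44), Zfp445 (0.789 and 3.32) and Zfp280c (1.45 and 4.89) completed the 15 most negative changes. Of these 10 genes, 0 kept the call with a pseudocount of 5. Of the 36 lower genes, 18 were below 1 FPKM with LPS and so entered through the unstimulated library alone.

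The 6 genes that rose were all of modest size of change, between 1.06 and 1.23. Zfp503 (chromosome 14, 22803184 to 22808823), a transcriptional repressor of the NET family that acts in the developing striatum, had 5.49 FPKM (5.00 to 5.98) in the LPS library and 1.76 FPKM (1.48 to 2.04) in the unstimulated library, a ratio of 3.12 (2.60 to 3.75). Zfp703 (chromosome 8, 28087808 to 28091934), the other NET family gene, had 2.98 FPKM (2.56 to 3.40) with LPS and 0.905 FPKM (0.667 to 1.14) without, a ratio of 3.29 (2.44 to 4.44). Zfp263, known in humans as a DNA-binding protein with SCAN and KRAB domains, had 13.3 FPKM (12.4 to 14.1) with LPS and 5.12 FPKM (4.57 to 5.68) unstimulated. Zfp319 had 2.72 FPKM (2.37 to 3.07) with LPS and 0.641 FPKM (0.468 to 0.814) unstimulated. Zfp513, a regulator in the retina, had 22.7 FPKM (21.0 to 24.5) with LPS and 9.55 FPKM (8.31 to 10.8) unstimulated, and this call was lost after rescaling to TPM. Zfp786 had 4.42 FPKM (3.88 to 4.97) with LPS and 1.49 FPKM (1.17 to 1.81) unstimulated. Of the 6, Zfp319 and Zfp703 entered through the LPS library alone and so had to be higher. For each of the 6 the 2 intervals were apart, and none passed the rule with a pseudocount of 5.

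Below the rule on the higher side lay Zfp945 (1.89 FPKM with LPS and 0.470 unstimulated) and Zfp619 (1.69 and 0.450), whose ratios of 4.02 (2.97 to 5.44) and 3.76 (2.79 to 5.06) exceeded that of Zfp503. Both passed the rule after median scaling and after quantile normalisation. Zfp777 (9.12 and 5.29), Zfp975 (1.71 and 0.743), Zfp358 (10.6 and 6.57), Zfp593 (6.95 and 4.39), Zfp622 (18.2 and 12.8), Zfp628 (2.08 and 1.21) and Zfp382 (2.20 and 1.30) completed the 15 most positive changes. All 15 had intervals that were apart.

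**Figure D3:**
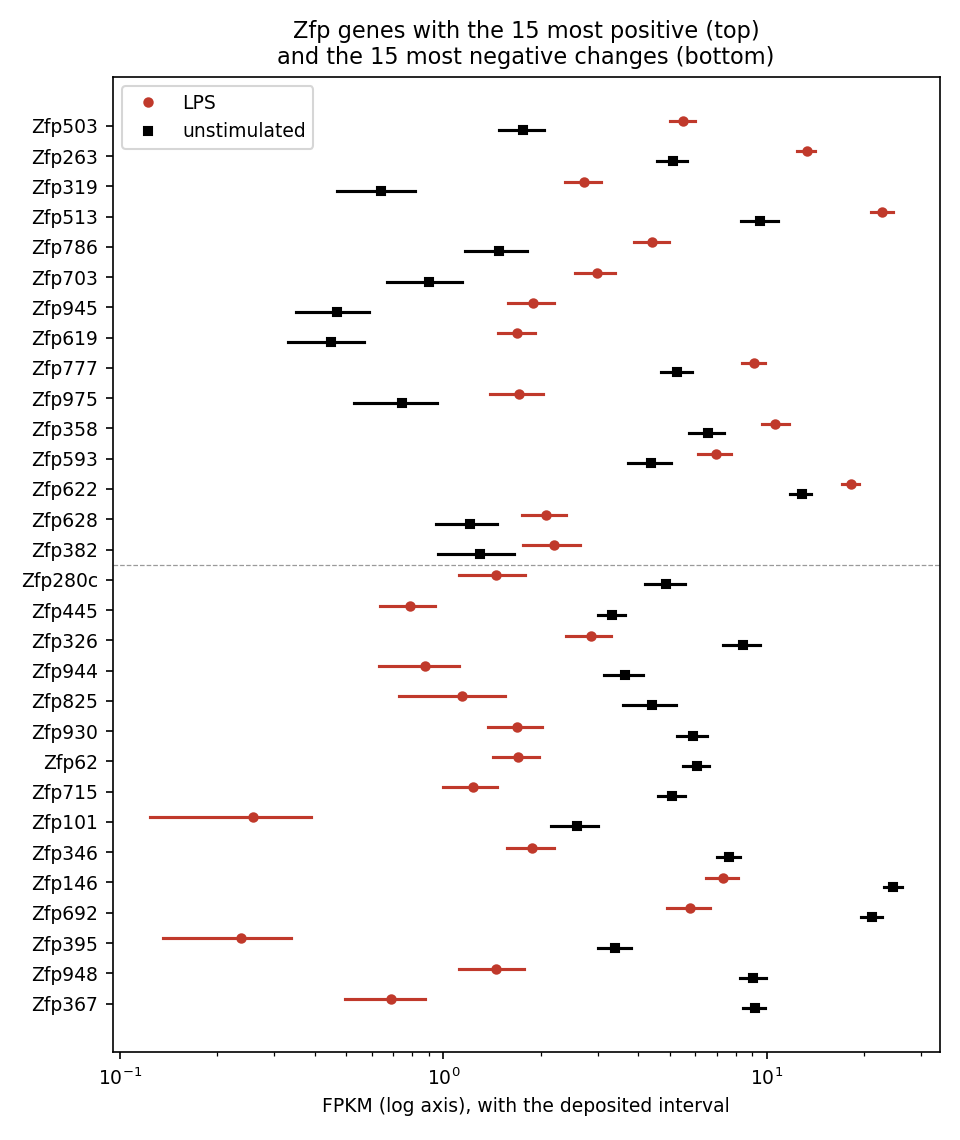
FPKM on a log axis for the 15 Zfp genes with the most positive change (above the dashed line) and the 15 with the most negative change (below it); red circles are LPS-stimulated cells, black squares unstimulated cells, and bars the deposited interval, combined over transcripts. In each of the 30 genes the bars are apart, and Zfp395 and Zfp101 show the lowest LPS values.

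Of the 10 most abundant Zfp genes, 2 passed the size rule. Zfp207 (chromosome 11, 80196781 to 80209750), also called BuGZ, binds microtubules and the checkpoint protein Bub3 at the spindle. It had 226 FPKM (220 to 232) in LPS-stimulated cells and 166 FPKM (162 to 170) in unstimulated cells, a ratio of 1.36 (1.31 to 1.41) and a change of 0.44. Its intervals were apart without passing the size rule. Zfp330, a nucleolar protein, followed with 31.1 FPKM with LPS and 46.8 FPKM unstimulated, and then Zfp706 with 15.2 and 27.7 FPKM. Zfp637 was at 18.2 FPKM with LPS and 17.9 FPKM unstimulated, Zfp672 at 14.8 and 15.9 FPKM, and Zfp639 at 14.4 and 16.3 FPKM, each with overlapping intervals. Zfp672 also overlaps other annotated loci. Zfp384 (17.0 and 14.4), Zfp622, Zfp513 and Zfp146 completed the 10 with the highest mean, of which Zfp513 rose and Zfp146 fell.

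Genes were also grouped by known role, and the counts of each group are to be read beside the 12.5% lower and 8.55% higher of all counted genes, whose median change was -0.24. Of 7 expressed genes linked to the silencing of retroelements or imprinted genes, 4 were lower, 0 higher, and the median change was -1.02. With 7 genes chosen with earlier results known, this count describes these genes only. Zfp445, Zfp708, Zfp568 and Zfp932 were below 1 FPKM with LPS. They entered through the unstimulated library alone and had to lie below 0, so the median and the count are partly set by the entry rule. Zfp445, which guards imprinted DNA methylation, had 0.789 FPKM (0.638 to 0.941) with LPS and 3.32 FPKM (3.00 to 3.63) without. Zfp638, which silences unintegrated retroviral DNA together with the HUSH complex, had 3.68 FPKM (3.25 to 4.11) with LPS and 9.51 FPKM (8.88 to 10.1) without. Zfp708, which binds a retrotransposon class in embryonic stem cells, had 0.620 FPKM with LPS and 2.27 FPKM unstimulated, and Zfp961 had 2.14 and 5.83 FPKM. Zfp638, Zfp708 and Zfp961 no longer passed the rule after median scaling, nor did they or Zfp445 after quantile normalisation. The other 3 did not pass the rule. Zfp568, a repressor of a placental Igf2 transcript, had 0.740 FPKM with LPS and 1.83 unstimulated, and Zfp932, a repressor of endogenous retroviruses, had 0.649 and 1.63 FPKM. Zfp809, which recognises the primer binding site of murine leukaemia virus, had 2.78 FPKM (2.11 to 3.44) with LPS and 3.83 FPKM (3.00 to 4.67) unstimulated, with overlapping intervals. Zfp57, the other guardian of imprints in this list, was listed at 0 in both libraries.

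Genes of corepressor and chromatin complexes formed the next group. Of 11 expressed, 1 was lower, 0 were higher, and the median change was -0.12. The lower one was Zfp148, which competes for GC boxes, at 1.20 FPKM (1.05 to 1.35) with LPS and 3.42 FPKM (3.16 to 3.68) without, a change of -1.01 that was short of the rule after median scaling and after quantile normalisation. Zfp217, a partner of the CtBP and LSD1 corepressors, had 2.14 FPKM with LPS and 3.56 FPKM unstimulated. Zfp91, a ubiquitin ligase for the kinase NIK, had 10.4 FPKM (9.83 to 11.0) with LPS and 16.4 FPKM (15.7 to 17.2) unstimulated, and it overlaps the readthrough locus Gm44505. Zfp592 (1.5 FPKM with LPS and 1.98 unstimulated) and Zfp687 (2.63 and 2.96) are partners of Zmynd8, and Zfp219 (2.33 and 3.38) binds GC-rich DNA. Zfp687 and Zfp219 overlap other genes, so their fragments may be shared. Zfp335, needed for T cell maturation, had 6.48 FPKM with LPS and 6.34 FPKM unstimulated. Zfp384, a nuclear matrix protein, and Zfp516, a factor of brown fat (2.37 FPKM with LPS and 1.59 unstimulated), had intervals apart, with the LPS value above, and stayed within the rule. Zfp516 overlaps another locus. Zfp143, the promoter-binding factor also known as Staf, had 5.20 FPKM (4.63 to 5.77) with LPS and 4.59 FPKM (4.04 to 5.13) unstimulated, with overlapping intervals. Zfp410 is known to act on the promoter of Chd4 above all. It had 8.05 FPKM with LPS and 8.80 FPKM unstimulated, and Chd4 itself had 9.24 and 9.53 FPKM, both with overlapping intervals. Zfp711 was listed at 0 in both libraries, and Zfp827 was below the threshold with 0.732 and 0.443 FPKM.

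Genes that act on RNA or the ribosome made up the last group. Of 10 expressed, 2 were lower and 0 higher, with a median change of -0.56. The lower genes were Zfp346 and Zfp326, a subunit of the DBIRD complex that couples splicing to transcription. Zfp326 had 2.85 FPKM (2.40 to 3.30) with LPS and 8.44 FPKM (7.34 to 9.54) unstimulated, and its main transcript alone fell just short of the rule. On the other side stood a pair of ribosome biogenesis factors, of which Zfp622 had 18.2 FPKM (17.1 to 19.3) with LPS and 12.8 FPKM (11.8 to 13.7) without. Zfp593 had 6.95 FPKM (6.12 to 7.77) with LPS and 4.39 FPKM (3.72 to 5.06) without. Both had intervals apart and stayed within the rule. Zfp598, the ubiquitin ligase that marks collided ribosomes, had 5.81 FPKM with LPS and 8.62 FPKM unstimulated. Zfp106, an RNA-binding protein of motor neurons, had 5.92 and 9.98 FPKM, Zfp830 had 5.94 and 10.9 FPKM, and Zfp385a, a partner of p53, had 7.14 FPKM (6.37 to 7.91) with LPS and an interval of 10.5 to 12.5 FPKM unstimulated, a ratio of 0.619 (0.539 to 0.711). Zfp318, known for the splicing of immunoglobulin D in B cells, had 1.21 FPKM with LPS and 2.04 FPKM unstimulated, with overlapping intervals.

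Many Zfp genes lie next to each other. In the deposited mm9 loci, 185 of 373 measured Zfp genes lay in 27 runs of 3 or more neighbours with gaps under 250 kb. Of these, 106 were expressed (57.3%), against 118 of 188 outside runs (62.8%). Lower genes numbered 17 of 106 in runs (16%) and 19 of 118 outside (16.1%), and the median changes were -0.64 and -0.56. Over all counted genes 12.5% were lower, 64.2% lay below 0 and the median change was -0.24. In the run on chromosome 13 from 67139530 to 67927937, all 18 expressed genes were below 0, with a median change of -0.78 and median levels of 0.540 FPKM with LPS and 1.62 FPKM unstimulated. Their changes lay between -0.01 for Zfp455 (1.16 FPKM with LPS and 1.18 unstimulated) and -1.15 for Zfp493 (0.523 and 2.39), and 3 of them were called lower.

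Next come 2 runs on chromosome 17. From 21520712 to 22593656, all 11 expressed genes were below 0 and 3 were lower, namely Zfp948, Zfp944 and Zfp942 (0.903 FPKM with LPS and 2.98 unstimulated). From 32902442 to 33768659, all 7 were below 0 and 4 were lower, with Zfp101 ahead of Zfp472 (0.549 and 2.71), Zfp955a (0.269 and 1.69) and Zfp955b (0.129 and 1.29). A run on chromosome 7 from 4866819 to 5005325 had 2 of 6 expressed genes below 0 and a median change of 0.14. Its genes ran between Zfp784 (0.759 FPKM with LPS and 1.03 unstimulated) and Zfp628 (2.08 and 1.21). In a run on chromosome 6 from 47769265 to 48036592, 3 of 6 were below 0, Zfp786 rose and Zfp777 had 9.12 and 5.29 FPKM. By whole chromosome, 27 of 27 expressed Zfp genes on chromosome 13 and 28 of 29 on chromosome 17 were below 0. On chromosome 7 it was 35 of 48 (72.9%). For comparison, 83.9% of all expressed Zfp genes and 64.2% of all counted genes were below 0. Genes of 1 run are often near copies, fragments can be assigned between them, and they are not independent. They were also chosen by level, and most expressed genes of the chromosome 13 and 17 runs entered through the unstimulated library.

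**Figure D4:**
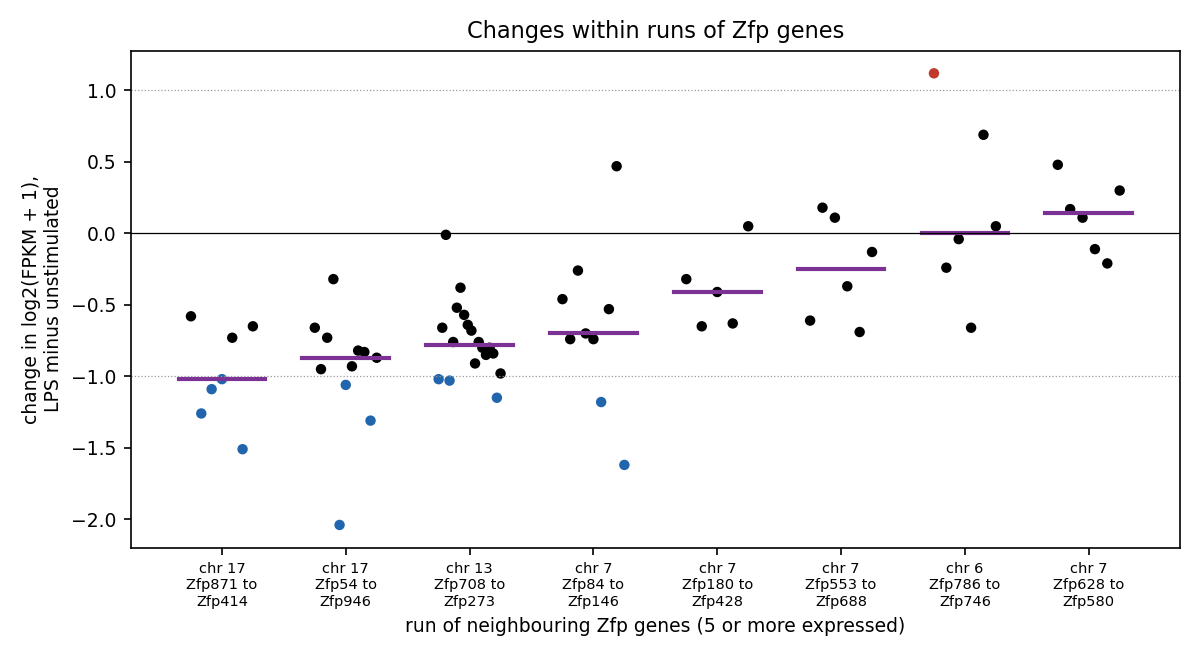
Change in log2(FPKM + 1), LPS minus unstimulated, for each expressed Zfp gene (point) in the 8 runs with 5 or more of them, in chromosomal order within a run; blue and red mark genes past the size rule, and purple bars are medians. The medians go from -1.02 on chromosome 17 to 0.14 on chromosome 7.

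The runs also differed in promoter sequence. RefSeq promoter windows (GRCm38.p6, 250 bases before to 50 after the gene start) were found by symbol for 188 of the 224 genes, 232 windows in all. They were searched on both strands for ACTACA, then any pair of bases, then TCCC, letters of the element that Zfp143 is known to bind. The letters stood in 15.5% of the windows of Zfp genes, in 4.41% of 10234 windows of counted genes and in 1.81% of all 32851 windows. Counted by gene, 36 of 188 expressed Zfp genes held them (19.1%), against 390 of 7850 other counted genes (4.97%). The share was uneven within the set, with 26 of 93 genes in runs (28%) and 10 of 95 outside runs (10.5%). Of the measured Zfp genes below the threshold, 22 of 121 held them (18.2%). On chromosome 13 all 15 genes of the run that had a window held the letters. Those of the chromosome 17 runs did not, with 0 of 10 in the first and 0 of 7 in the second, and the chromosome 7 run from Zfp84 to Zfp146 had 5 of 8. Such matches describe the sequence, and binding was not measured in these libraries.

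The matches lay close to the gene start. Of 37 matches, 30 began within the last 100 bases before it, and the median position was -52. In 28 of them the letters read on the strand opposite to the gene. To show the bases around the letters, the stretches of some genes of the chromosome 13 run follow first, read 5′ to 3′ on the strand of the match, with the matched letters in capitals.
Zfp708 (chr13:67081577-67081606, plus strand): ctaagagagACTACATTTCCCagaagtcta
Zfp273 (chr13:67813740-67813769, minus strand): cagagagaaACTACATTTCCCagaagtcta
Zfp85 (chr13:67755198-67755227, plus strand): gagagagagACTACATTTCCCagaagtcta
Zfp595 (chr13:67332591-67332620, plus strand): gtggtagggACTACATTTCCCacaagtcag
Zfp429 (chr13:67399818-67399847, plus strand): gcggtgcggACTACATCTCCCagaagtctg
Zfp738 (chr13:67683548-67683577, plus strand): agggacgggACTACACTTCCCacaagtcag
Genes on other chromosomes that held the letters include these, shown because their levels are given above.
Zfp146 (chr7:30169851-30169880, plus strand): cgactttggACTACACTTCCCacaaggcac
Zfp692 (chr11:58307012-58307041, plus strand): ctaaggctaACTACAATTCCCggcaggctt
Zfp219 (chr14:52019700-52019729, plus strand): tcacccgagACTACAAATCCCaggatgccc

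Changes were set beside the presence of the letters. Of 36 expressed Zfp genes with a match 6 were lower (16.7%) and 0 higher, with a median change of -0.65. Of 152 without a match 25 were lower (16.4%) and 5 higher, with a median change of -0.58. Among the other counted genes, 42 of 390 with a match were lower (10.8%) and 13 higher. Without a match, 916 of 7460 were lower (12.3%) and 660 higher. Levels of the Zfp genes differed. Medians were 0.705 FPKM with LPS and 1.67 FPKM unstimulated for Zfp genes with the letters, against 1.49 and 2.35 FPKM for those without. With so low a median in LPS, many Zfp genes with the letters entered through the unstimulated library alone and had to lie below 0. Their median change and counts are thus partly set by the entry rule. Among genes of the chromosome 13 run shown above, Zfp708 and Zfp595 (0.269 FPKM with LPS and 1.60 unstimulated) fell. Zfp429 had 3.13 FPKM with LPS and 4.36 unstimulated.

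Letters of 6 other factors were also searched on both strands. The kappaB letters, GGG, any pair of bases and TTTCC, stood in 4 of 232 windows of Zfp genes (1.72%, against 1.77% of windows of counted genes and 1.63% of all windows). The interferon response letters, GAAA, any pair of bases and GAAA, stood in 4 windows (1.72%, against 3.32% and 3.44%). The 6 windows of higher genes held neither. The ETS letters CCGGAAGT stood in 23 of 232 windows (9.91%, against 9.12% of windows of counted genes and 3.89% of all windows). They stood in 0 of the 40 windows of lower genes and in 1 of the 6 windows of higher genes. The CRE letters TGACGTCA stood in 10 windows (4.31%, against 3.21% of windows of counted genes), and 3 of the 40 windows of lower genes held them. The E2F letters TTTCCCGC, which can share TTTCCC with the end of a Zfp143 match, stood in 5 windows (2.16%, against 2.12%). The NRF1 letters, GCGCA directly followed by TGCGC, stood in 7 windows (3.02%, against 2.35%). Windows of the higher genes Zfp503, Zfp319, Zfp513 and Zfp786 held none of the searched letters. Zfp143 letters stood in 6 of the 40 windows of lower genes (15%), against 15.5% of all Zfp windows. The pair shown next therefore does not stand for the genes that rose or fell. Zfp263, which rose, and Zfp692, which fell, are given by the 250 bases before the start, on the gene's strand. The ETS letters of Zfp263 and the Zfp143 letters of Zfp692 are in capitals.
Zfp263 (chr16:3743849-3744098, plus strand): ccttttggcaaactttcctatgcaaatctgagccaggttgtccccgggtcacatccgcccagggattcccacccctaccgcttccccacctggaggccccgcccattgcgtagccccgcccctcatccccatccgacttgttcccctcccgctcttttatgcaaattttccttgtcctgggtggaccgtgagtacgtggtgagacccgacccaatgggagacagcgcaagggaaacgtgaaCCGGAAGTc
Zfp692 (chr11:58306819-58307068, plus strand): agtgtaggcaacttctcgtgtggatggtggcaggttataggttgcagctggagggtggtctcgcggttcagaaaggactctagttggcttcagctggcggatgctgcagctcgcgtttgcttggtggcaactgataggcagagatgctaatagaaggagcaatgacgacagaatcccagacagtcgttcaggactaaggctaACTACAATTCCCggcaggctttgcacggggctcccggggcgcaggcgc
In these stretches Zfp263 has 14 CpG dinucleotides and Zfp692 has 13.

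Promoter composition and gene length were read against the change. Zfp windows had a median of 15 CpG dinucleotides, against 21 in windows of counted genes and 7 in all windows. Under 15 CpG, 19 of 87 Zfp genes were lower and 0 higher, with a median change of -0.67. From 15 to 30 CpG, 9 of 78 were lower and 4 higher (median -0.44), and at 30 or more 3 of 23 were lower and 1 higher (median -0.46). Among the other counted genes the share of lower genes was 12.7%, 12% and 12.1% in the same bins. Of these other genes 318 of 1970, 259 of 4109 and 96 of 1771 were higher. Their median changes were -0.13, -0.24 and -0.29, most negative at high CpG, unlike those of the Zfp genes. Zfp genes with a locus under 10 kb counted 5 lower (9.8%) and 5 higher of 51 (median -0.27), where 258 of 2743 other counted genes were lower (9.41%) and 273 higher. Those of 10 to 25 kb counted 21 lower (18.3%, against 12% of other counted genes) and 1 higher of 115 (median -0.63). Those of 25 kb or more counted 10 lower (17.2%, against 14.5%) and 0 higher of 58 (median -0.66). Of the other counted genes 265 of 2788 were higher at 10 to 25 kb and 314 of 4285 at 25 kb or more. Their median changes were -0.11, -0.19 and -0.34 from short to long loci. Spearman's rho with the change over Zfp genes was 0.25 for CpG (n = 188) and -0.26 for locus length (n = 224), and over other counted genes -0.09 (n = 7850) and -0.12 (n = 9816). With mean FPKM, rho over Zfp genes was 0.18 (n = 224). These correlations are across genes of the same 2 libraries, and duplicated neighbours share promoter and length. The direction was fixed for 81 Zfp genes that entered through the unstimulated library alone and 7 through the LPS library alone. Of the other 9816 genes it was fixed for 900 and 316. Bins and correlations include these genes and describe the set only.

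Several Zfp genes had more than 1 annotated transcript. Of 49 such genes, 0 had transcripts that changed in opposite directions past the size rule. For Zfp513 one transcript had 15.4 FPKM with LPS and 4.54 FPKM unstimulated, and the other had 7.29 and 5.00 FPKM. For Zfp692 one transcript carried nearly all of the difference, at 5.09 FPKM with LPS and 20.4 FPKM unstimulated, while the other was at 0.705 and 0.740 FPKM. For Zfp280c, a gene of the X chromosome with 4 transcripts, one had 0.925 FPKM with LPS and 6.64e-05 FPKM unstimulated while another had 0.527 and 2.94 FPKM. Estimates for overlapping transcripts of 1 gene trade fragments with each other, and for Zfp710 (5.99 FPKM with LPS and 4.55 unstimulated) the combined interval was as wide as that of 2.67 fragments.

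Genes of proteins that work with KRAB zinc finger proteins had, in part, lower transcript levels with LPS. Of 23 such genes, all expressed, 8 were lower (34.8%, against 12.5% of all counted genes) and 1 higher (4.35%, against 8.55%), with a median change of -0.57. Trim28, the corepressor that KRAB domains bind, had 33.2 FPKM (31.8 to 34.6) with LPS and 37.6 FPKM (36.1 to 39.1) unstimulated, and the histone methyltransferase Setdb1 had 9.15 and 14.1 FPKM. Neither passed the rule. The heterochromatin proteins Cbx3 (2.90 FPKM with LPS and 12.6 unstimulated) and Cbx5 (1.98 and 7.17) fell, and the third, Cbx1, had 5.75 and 9.06 FPKM. Dnmt1, the maintenance DNA methyltransferase, fell to 5.63 FPKM (5.07 to 6.20) with LPS, against 24.6 FPKM (23.3 to 25.8) unstimulated, as did its cofactor Uhrf1 (4.93 and 22.4). Of the HUSH complex, Tasor (0.400 and 1.89) and Mphosph8 (3.23 and 10.8) fell, and Pphln1 was at 10.1 and 8.57 FPKM with a wide interval. The remodellers Atrx (1.67 and 8.24) and Smarcad1 (1.80 and 5.26) fell, whereas Daxx, the histone chaperone that binds Atrx, rose to 74.7 FPKM (72.3 to 77.1) with LPS, against 5.06 FPKM (4.43 to 5.68) unstimulated. With a pseudocount of 5, 3 of the 23 genes were lower, and 3.54% of all counted genes.

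Other families named for zinc fingers were counted by the same rule, by which 12.5% of all counted genes were lower and 8.55% higher. Of 10 expressed Zscan and Zkscan genes, which carry C2H2 fingers and a SCAN domain, 2 were lower and 0 higher, with a median change of -0.53. Zkscan14 had 1.29 FPKM with LPS and 8.22 FPKM unstimulated. Of 31 genes with a Zbtb symbol, 4 were lower and 3 higher (median -0.30, but 0.05 after quantile normalisation). These include Zbtb8os and Zbtb11os1, opposite-strand genes named after their neighbours. Without them, a choice made after seeing the data, 29 genes were left, which carry C2H2 fingers and a BTB domain, again with 4 lower, 3 higher and the same medians. Zbtb32, a lymphocyte factor, had 9.27 FPKM with LPS and 0.637 FPKM unstimulated. Of 18 Zdhhc genes, palmitoyl transferases in which the zinc-binding motif serves the enzyme, 2 were lower and 1 higher (median -0.24). Of 13 Zc3h genes, mostly RNA-binding CCCH proteins, 1 was lower and 2 higher (median 0.01, but -0.18 after rescaling to TPM). Zc3h12a, the ribonuclease Regnase-1 that destroys cytokine mRNA, had 22.0 FPKM with LPS and 2.10 FPKM unstimulated. Of 9 Klf genes, 0 were lower and 3 higher (median 0.14, but -0.01 after TPM). The largest rise within the Zfp set, 1.23, was smaller than those of Zbtb32 (2.65), Zc3h12a (2.89) and Zdhhc18 (2.11). It was larger than any among the expressed Zscan and Zkscan genes, where Zkscan17 had the most positive change (0.29).

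**Figure D5:**
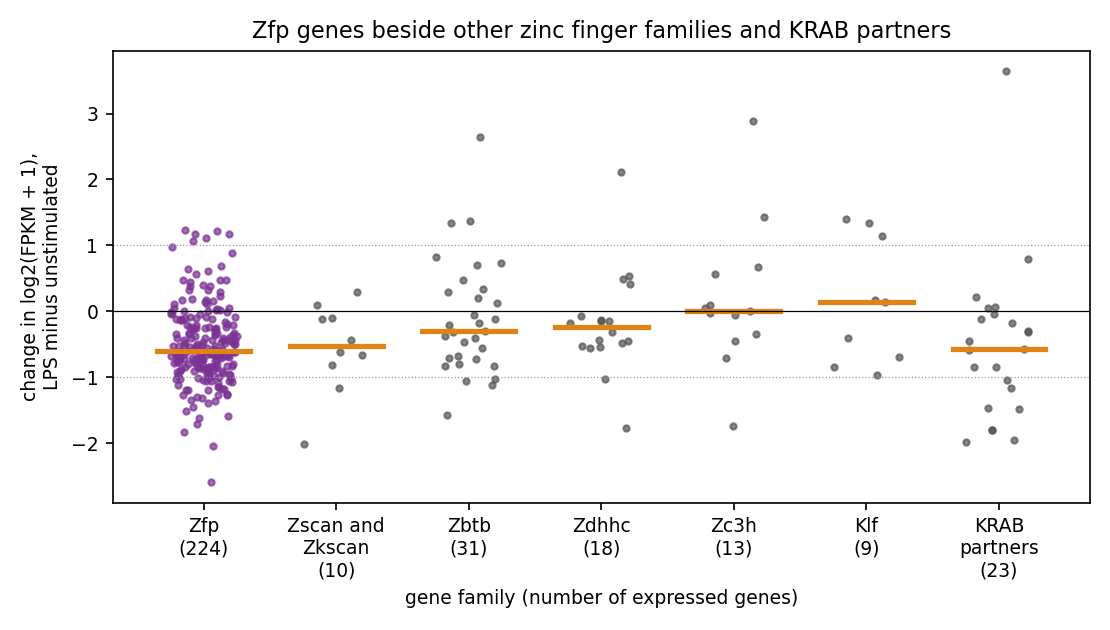
Change in log2(FPKM + 1), LPS minus unstimulated, for each expressed gene (point) of the Zfp set, of 5 other families named for zinc fingers or close to them, and of the KRAB partners, with the number of genes under each name; orange bars are medians and dotted lines the size rule. The Zfp median is -0.60 and no Zfp gene exceeds 1.23, while Daxx stands at 3.64 among the partners.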

How the data were processed

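RNA of LPS-stimulated and of unstimulated BV2 cells was measured, 1 library each. The authors deposited, per library, FPKM values with lower and upper bounds and an estimation status for 28246 RefSeq transcript rows. Per the submitters' processing notes they come from Cufflinks on mm9. No source used here gives its version or names an aligner, and per the labels' protocols the kit was strand-specific. A RefSeq table (GRCm38.p6, names only) matched 27560 rows (97.6%). Rows without status OK in both libraries (391) and small RNA rows (693) were dropped, and rows of a symbol were summed with interval widths combined in quadrature. Implied fragments are the square of 2 × FPKM over the upper width, and they cover counting error inside a library only. Ratios have a 95% interval from both libraries and are not given at 3 or fewer implied fragments. Loci are mm9, 1-based, with deposited starts read as 0-based. Steps ran in Python 3.11.15 with pandas 2.3.3 and were tested on simulated data.

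Named genes are the 10 with the highest mean FPKM, the 15 most positive and the 15 most negative changes, role lists, the neighbours of the threshold and partners past the size rule. Genes given in the accounts of runs, promoters, transcripts and other families, and partners short of the size rule, were named after their values were seen. Members, lists and motifs were chosen with earlier results of these data known. No p-value is given, because each group has 1 library. Counts by KRAB domain and finger number were planned and not run, since no protein sequences were used here. Alternatives covered the pseudocount, scaling, filter, transcript rows and size rule.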

Additional observations from a re-analysis of the deposited data

How the results depend on the processing

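The median change of the 224 Zfp genes was -0.60 on deposited FPKM. It was -0.87 with a pseudocount of 0.1, -0.23 with a pseudocount of 5, -0.88 after rescaling to TPM, -0.46 after median scaling, -0.29 after quantile normalisation and -0.32 with no filter on FPKM (373 genes). Over all counted genes these settings gave -0.28, -0.14, -0.48, -0.06, -0.13 and 0.00. The number of lower Zfp genes, 36, became 100 with a pseudocount of 0.1, 4 with a pseudocount of 5, 86 after TPM, 12 after quantile normalisation, 14 of 60 genes with a filter at 5 FPKM (23.3%, against 12.5% of all genes) and 115 with a size rule of a 1.5-fold change (51.3%, against 29.7%). The same shares of all genes were 20.6%, 3.54%, 22.9% and 8.40% for the first 4 of these settings. The number of higher ones, 6, became 0 with a pseudocount of 5, 3 with the filter at 5 FPKM and 11 with the smaller size rule, where 5.75%, 10.7% and 13.8% of all genes were higher. The 36 lower genes were all among those called with a pseudocount of 0.1 and after TPM. Of the KRAB partners, 8 were lower on deposited FPKM and 3 with a pseudocount of 5. No called gene named by the rule changed sign in any setting run. Among 25 called genes named by the rule, 21 lost the call with a pseudocount of 5, 7 after quantile normalisation, 4 after median scaling, 2 with single transcripts and 1 after TPM. Which part of these differences comes from scarce transcripts was not tested beyond these settings. Counts of KRAB domains and fingers per protein were planned and not run. No paired analysis was possible because each group has 1 library, and no library could be left out. Depth limits the scarcest genes: 7 Zfp genes in the LPS library and 2 in the unstimulated library had under 10 implied fragments.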
